A study of Mus musculus with 6 samples.

Results

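The genes of the proteasome and of antigen presentation by major histocompatibility complex (MHC) class I were compared between Runx3-/- and wild type (WT) CD4+ dendritic cells (DC) of the mouse spleen. Members were the probe sets annotated with exactly 1 gene symbol that starts with Psma, Psmb, Psmc, Psmd or Psme, or that names B2m, a class I heavy chain, or a gene of peptide transport, trimming and loading. A gene with more than 1 probe set is represented by the brightest of them over the 6 arrays. This gave 54 genes, from 60 probe sets, of 19938 genes with a symbol of their own among 35399 probe sets. The Runx3-/- group held 3 male mice aged 6 weeks without functional Runx3 in any cell, not in DC alone, and the WT group 3 male mice aged 6 weeks with both Runx3 alleles (Runx3 +/+). Each Runx3-/- mouse had a WT littermate in the study, and arrays are numbered 1 to 3 by litter. CD11c+ MHCII+ cells were sorted by CD4 and CD8 after enrichment on magnetic beads, and whether Esam belonged to the gate is not clear from the labels. RNA of each mouse was hybridised to 1 Affymetrix array, with the value of each probe set given on the log2 scale.

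The proteasome degrades ubiquitin-tagged proteins in the cytosol and nucleus. Its 20S core is built from outer rings of alpha subunits and inner rings of beta subunits, of which Psmb5, Psmb6 and Psmb7 are catalytic, and the 19S regulatory particle unfolds substrates with a ring of ATPases (Psmc genes) and binds them with non-ATPase subunits (Psmd genes). In cells exposed to interferon, and constitutively in many immune cells, Psmb8, Psmb9 and Psmb10 take the place of the 3 constitutive catalytic subunits and form the immunoproteasome. The peptides are pumped into the endoplasmic reticulum by the transporter Tap1/Tap2, trimmed, and loaded onto class I heavy chains paired with B2m, which DC display to CD8+ T cells. Runx3 is a transcription factor of the RUNX family.

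Runx3 itself had log2 values of 9.16, 9.30 and 9.16 in Runx3-/- DC, against 11.24, 11.22 and 11.11 in WT DC. The log2 change, Runx3-/- minus WT, was -1.98 with a standard error (SE) of 0.08 (limma, adjusted p = 0.0027), and the labels were borne out in every array. All 10 markers of sorted CD4+ DC that were checked lay above background, a log2 value of 6.5, in all 6 arrays, while all 5 NK cell markers, all 5 neutrophil markers, the 2 erythroid markers measured of 5 listed and 5 of 6 T cell markers lay below it throughout. Markers of some other cell types were detected. Of 8 CD8+ DC markers 6 lay above background in all arrays, as did 3 of 5 measured B cell markers and 3 of 5 plasmacytoid DC markers. So did 6 of 7 red pulp macrophage markers and 2 of 4 measured monocyte markers. The summed values of these last lists were higher in Runx3-/- DC and are given with the cross-presentation genes. The linear values of the B cell list summed to 1951 to 2076 in Runx3-/- DC, against 1572 to 2109 in WT DC. Those of the plasmacytoid DC list summed to 1378 to 3476 in Runx3-/- DC, against 1212 to 1298 in WT DC, and Siglech, a defining marker of plasmacytoid DC, had 7.46, 8.18 and 10.18 in Runx3-/- DC, against 7.45, 7.40 and 7.43 in WT DC, with Runx3-/- 3 standing apart. The part of such cells in the members' values was not tested. Across the arrays 298 of 19149 tested probe sets passed an adjusted p of 0.05, which is 1.56% (0.856% higher and 0.7% lower in Runx3-/- DC).

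A pair of arrays stood apart at probe sets of the MHC (H2) region, and both came from litter 3. Among all 35399 probe sets, the 3 largest gaps between a single array and the nearest of the other arrays were at H2 probe sets. H2-Ea, the alpha chain of a class II molecule that some H2 haplotypes do not transcribe, had log2 values of 5.34, 5.44 and 11.21 in Runx3-/- DC, against 5.25, 5.33 and 5.30 in WT DC. It was thus above background in Runx3-/- 3 alone. A probe set that reads both classical class I heavy chains, H2-D1 and H2-K1 (10444780), had 13.18, 12.73 and 12.97 in Runx3-/- DC, against 12.69, 12.77 and 7.01 in WT DC. Here the array of WT 3 lay 5.67 log2 units below the next lowest array. The class Ib probe set of H2-Q6 and H2-Q8 had 12.08, 11.25 and 11.12 in Runx3-/- DC, against 11.19, 11.16 and 8.55 in WT DC, again with WT 3 lowest. The largest gap at a probe set outside H2 was 2.43, and the largest at a member was 0.31, for Pdia3. The labels and methods give neither strain nor H2 haplotype for these mice, and the part of haplotype in these values was not tested.

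**Figure D1:**
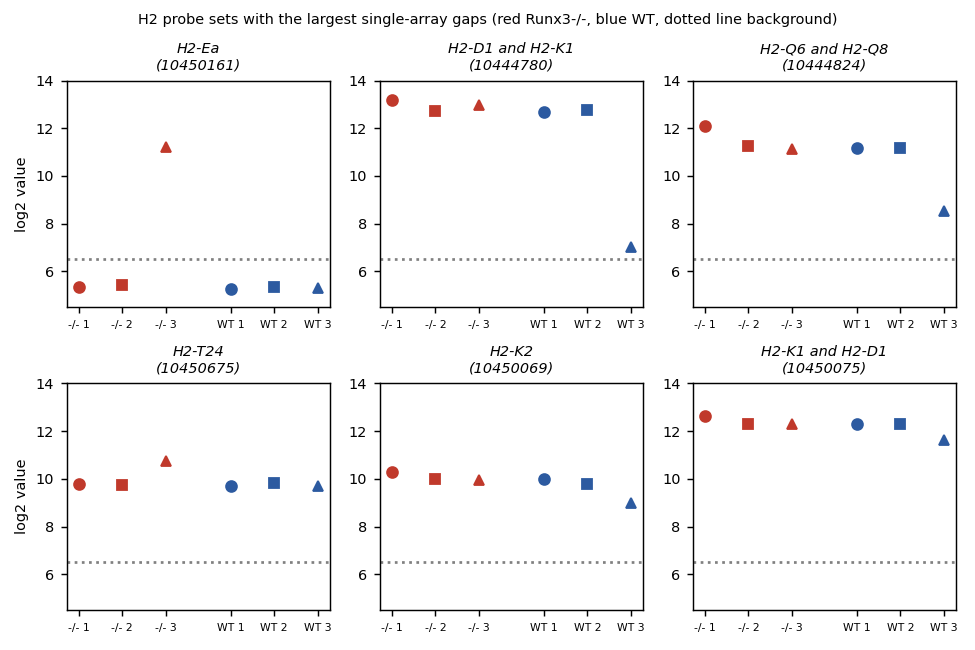
Log2 values (y axis) of the 6 H2 probe sets with the largest single-array gaps, by array (x axis, Runx3-/- in red left of WT in blue, numbered by litter, 1 point per mouse). H2-Ea is at 11.21 in Runx3-/- 3 and under the dotted background line of 6.5 in the other arrays, and the H2-D1 and H2-K1 probe set 10444780 is at 7.01 in WT 3 and at 12.69 or more elsewhere.

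The classical heavy chains could not be read gene by gene. H2-K1, H2-D1, H2-T23 and H2-Q7 had no probe set with exactly 1 symbol, so that these 4 genes could not enter as members. A second probe set shared by H2-K1 and H2-D1 (10450075) had 12.65, 12.31 and 12.29 in Runx3-/- DC, against 12.30, 12.31 and 11.62 in WT DC (log2 change 0.34, SE 0.21, limma adjusted p = 0.50). The groups overlapped, and WT 3 was again the lowest array. The probe set shared by H2-T23 and H2-T-ps had a change of -0.04 (SE 0.09). Of 24 H2 probe sets above background in at least 1 array, 0 passed by limma. B2m, the invariant light chain that all class I heavy chains need at the surface, had 13.94, 14.03 and 13.99 in Runx3-/- DC, against 13.98, 13.94 and 13.99 in WT DC. The groups overlapped fully, with a change of 0.01 (SE 0.06) and a 95% interval of -0.15 to 0.17.

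None of the proteasome and class I members passed the test. Psmb11, the core subunit that is specific to the thymus, lay below background in all 6 arrays (5.45 to 5.55) and was not tested. The other 53 were above background in every array. By limma 0 of 53 had an adjusted p of at most 0.05, set against 1.56% of all tested probe sets, and 0 passed that threshold before adjustment, set against 15.9%. With the litter as a replicate block 0 passed the adjusted threshold and 5 passed it before adjustment (9.43%, against 17.9% of all tested probe sets, of which 0 passed after adjustment). The analysis of variance named in the study's methods was run here with Benjamini-Hochberg adjustment, which the study's thresholds do not include. It gave 0 members after adjustment, where 6 probe sets of the whole table passed, and 1 before it. Over the whole table, 1968 to 4250 probe sets passed before adjustment across the 14 alternatives run for that count, this one among them. The share for this test alone is not given, so the 1 member is not read as a result. The study's thresholds set the same p before adjustment together with a 1.5-fold change. Applied to the limma p instead of that of the study's analysis of variance, they gave 0 of 53, set against 3.95%. In a bulk sample, more or fewer cells of a type and more or less RNA per cell cannot be told apart.

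The data bound the size of the changes. With 1 probe set per gene, the brightest, the log2 changes ran from -0.25 (Tap2) to 0.33 (Psma6), and their median was 0.02, against -0.04 over all tested probe sets. The 95% interval lay within a 1.5-fold change in either direction for 48 of 53 members (90.6%, against 72.9% of all tested probe sets and 84.7% of those with a mean of at least 9). The exceptions were Psma2, Psma6, Psmc1, Psmd6 and Tap2. Across all members the interval bounds ran from 0.619-fold to 1.67-fold. Of the changes, 32 were positive and 21 negative, which is 60.4% positive against 40.7% over all tested probe sets. With quantile normalization 37 were positive and 16 negative (69.8%, against 48.6% over all), and with each array centred on its median 40 were positive and 13 negative (75.5%, against 51.5% over all). The scaling thus moved the share for the members and for all probe sets alike.

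**Figure D2:**
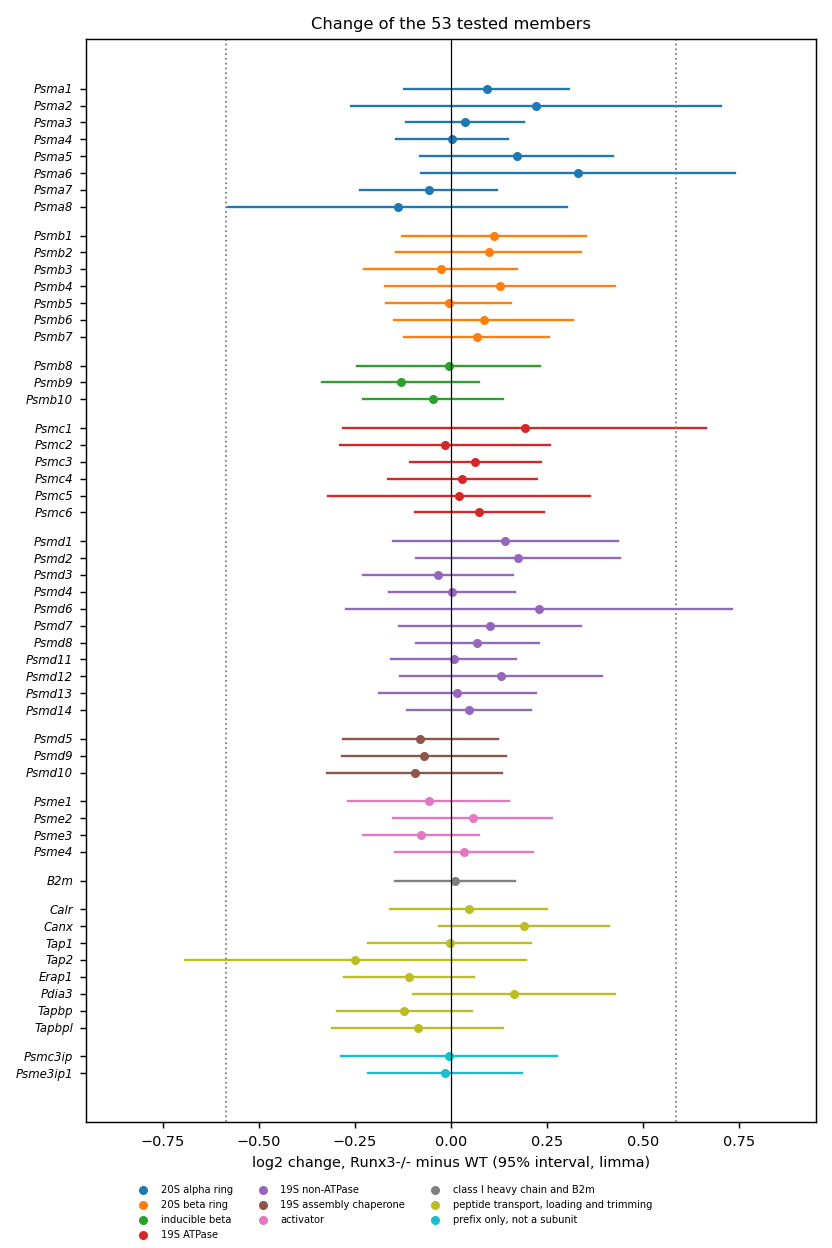
Log2 change, Runx3-/- minus WT (x axis), of the 53 tested members (y axis, coloured and grouped by role), with 95% intervals from limma over 3 Runx3-/- and 3 WT arrays. The dotted lines mark a 1.5-fold change either way, which 5 intervals reach past, and every interval includes 0.

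Alpha subunits form the outer rings of the core and gate the entry of substrates. Of 8 tested, 6 had a positive change, with a median of 0.06. Psma6 had the largest change among the brightest probe sets of the members, although a second probe set of Psmc1, described with the ATPases, had a larger one of 0.35. Its log2 values were 11.46, 11.23 and 11.65 in Runx3-/- DC, against 10.94, 10.98 and 11.42 in WT DC. The Runx3-/- value was the higher one in every litter, but WT 3 lay above Runx3-/- 2, so the groups overlapped. The change was 0.33 (SE 0.17, limma adjusted p = 0.41, and adjusted p = 0.20 with the litter as a block). Psma2 had 9.99, 9.56 and 10.13 in Runx3-/- DC, against 9.63, 9.42 and 9.97 in WT DC, a change of 0.22 (SE 0.20). For Psma2 litter 2 was lowest in both genotypes, and the litter held 78.7% of the sum of squares against 17.8% for genotype. Psma5 differed by 0.19, 0.17 and 0.15 in the 3 litters (mean 0.17, SE 0.10), but this probe set's identifier lies among those of genes on another chromosome, and the probe set at its own locus gave 0.09. Psma4 had a change of 0.00 (SE 0.06). Psma8, the alpha subunit of the testis, was the dimmest at 7.26, 6.98 and 7.01 in Runx3-/- DC, against 7.26, 6.87 and 7.54 in WT DC, which overlapped.

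The constitutive beta subunits were as close. Of 7 tested, 5 had positive changes, with a median of 0.08 and a largest change of 0.13 for Psmb4. Psmb5, which carries the chymotrypsin-like activity, had 10.66, 10.63 and 10.75 in Runx3-/- DC, against 10.66, 10.70 and 10.70 in WT DC. Its change of -0.01 (SE 0.07) is below the spread of the arrays, and its sign turns to 0.03 with median centring. Psmb6, the caspase-like subunit, had a change of 0.08 (SE 0.10), and Psmb7, the trypsin-like subunit, 0.07 (SE 0.08). Psmb1 and Psmb2, non-catalytic subunits of the beta ring, had changes of 0.11 and 0.10 (SE 0.10 each). Psmb2 is the only member on the chromosome of Runx3, and lies 86 tested genes away from it among 609 on that chromosome.

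The inducible subunits, which mark the immunoproteasome, had no positive change among 3 tested. Psmb8 had 10.31, 10.03 and 10.04 in Runx3-/- DC, against 10.15, 10.18 and 10.07 in WT DC. Runx3-/- 1 was the highest array and Runx3-/- 2 the lowest, and the change was -0.01 (SE 0.10). Psmb9 had 10.91, 10.68 and 10.84 in Runx3-/- DC, against 10.93, 10.90 and 11.00 in WT DC. It was lower in the Runx3-/- mouse of every litter, by 0.02, 0.22 and 0.15, and the groups overlapped through Runx3-/- 1 (change -0.13, SE 0.08, limma adjusted p = 0.51). Psmb10 had a change of -0.05 (SE 0.08).

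Since an inducible subunit takes the place of a constitutive one, the log2 difference of each such pair within an array was compared between genotypes. This difference does not measure the ratio of the proteins, because probe sets differ in brightness. Psmb9 minus Psmb6 was 1.04, 0.97 and 1.27 in Runx3-/- DC, against 1.22, 1.32 and 1.37 in WT DC. It was lower in the Runx3-/- mouse of all 3 litters, by 0.19, 0.35 and 0.11, with a mean of -0.22 (SE 0.10). The exact two-sided permutation test gave p = 0.2 (0.3 adjusted over the 3 pairs), and 3 against 3 arrays cannot give less than 0.1. Neither this test nor the SE uses the pairing of the mice by litter. Psmb10 minus Psmb7 differed by -0.11 (SE 0.06, exact p = 0.2, adjusted 0.3), with the opposite sign in litter 3. Psmb8 minus Psmb5 differed by 0.00 (SE 0.11, exact p = 1), and by -0.10 without Runx3-/- 1 and -0.04 without WT 3.

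**Figure D3:**
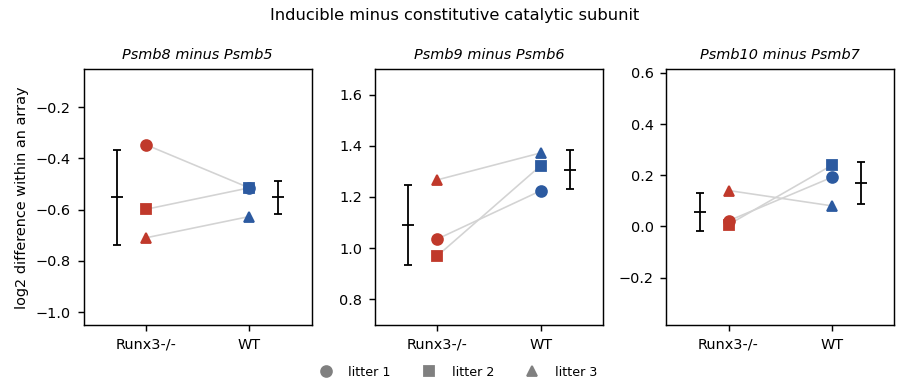
Log2 value of the inducible subunit minus that of the constitutive subunit it replaces (y axis, spanning 1 log2 unit in each panel), by genotype (x axis, Runx3-/- left of WT). Symbols are mice, grey lines join littermates, and bars give the mean and SD (n = 3). Psmb9 minus Psmb6 is lower in Runx3-/- for each littermate pair, by 0.11 to 0.35, with overlapping groups.

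In the 19S regulatory particle the signs were mostly positive and the changes small. Of 6 ATPases 5 were positive (median 0.05), and of 11 non-ATPase subunits 10 were positive (median 0.07). Among the brightest probe sets, Psmd6 had the second largest positive change. It had 10.30, 10.02 and 10.58 in Runx3-/- DC, against 10.05, 9.76 and 10.41 in WT DC. The littermate differences of 0.25, 0.26 and 0.17 were even, but litters differed by more, with 82.0% of the sum of squares, so the groups overlapped (change 0.23, SE 0.21, limma adjusted p = 0.65, and adjusted p = 0.21 with the litter as a block). Psmd2 and Psmd1, the large scaffold subunits of the base, had changes of 0.17 (SE 0.11) and 0.14 (SE 0.12) and were higher in all 3 litters. The probe set used for Psmd2 lies by its identifier among genes of another chromosome, and the one at its own locus gave 0.11 (SE 0.11). Psmd14, the deubiquitinase of the lid, had a change of 0.05 (SE 0.07), and Psmd4, a ubiquitin receptor, one of 0.00 (SE 0.07). For the ATPase Psmc1 the brightest probe set gave 0.19 (SE 0.19). The one at its own locus (10397741) had 9.204, 9.002 and 9.379 in Runx3-/- DC, against 8.761, 8.636 and 9.146 in WT DC. It was higher in the Runx3-/- mouse of all 3 litters and gave 0.35 (SE 0.16, limma adjusted p = 0.37, and adjusted p = 0.16 with the litter as a block). Both probe sets had overlapping groups. Psmc6 and Psmc3 of the same ring had changes of 0.07 and 0.06 (SE 0.07 each), and Psmd12, a scaffold of the lid, one of 0.13 (SE 0.11).

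The 3 chaperones that assemble the ATPase ring and leave it afterwards, Psmd5, Psmd9 and Psmd10, had negative values, with changes of -0.08, -0.07 and -0.09 (SE 0.08, 0.09 and 0.09). Among the activators that cap the core, Psme1 and Psme2, the interferon-induced subunits of PA28, had changes of -0.06 and 0.06 (SE 0.09 each). Psme3, which forms the nuclear activator PA28 gamma, had 10.97, 11.00 and 10.95 in Runx3-/- DC, against 11.02, 11.05 and 11.08 in WT DC. All 3 Runx3-/- arrays lay below all 3 WT arrays, though by a mean of only 0.08 (SE 0.06, limma adjusted p = 0.60). Psme4, the activator PA200, had a change of 0.03 (SE 0.07). Psmc3ip and Psme3ip1 met the naming rule without being subunits, and their changes were -0.01 and -0.02 (SE 0.12 and 0.08).

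Peptide supply and loading showed no common direction, with 3 positive and 5 negative changes among 8 genes. Tap1 and Tap2 together form the peptide transporter. Tap1 had 11.39, 11.15 and 11.32 in Runx3-/- DC, against 11.35, 11.27 and 11.25 in WT DC (change 0.00, SE 0.09). Tap2 had 9.18, 9.10 and 9.67 in Runx3-/- DC, against 9.57, 9.35 and 9.78 in WT DC. It was lower in the Runx3-/- mouse by 0.39, 0.25 and 0.11, yet Runx3-/- 3 exceeded WT 1 and WT 2, and the change of -0.25 (SE 0.18) had limma adjusted p = 0.57, or 0.26 with the litter as a block. Without litter 3, whose arrays stand apart in the H2 region, the change was -0.32 for Tap2, -0.04 for Tap1, -0.12 for Psmb9 and 0.00 for Psmb8. In that fit 0 of the 53 members passed by limma, with 4 at an unadjusted p of at most 0.05. The share of all tested probe sets is not given for this smaller fit, so these counts are not read as a result about the members. Psmb9, Tap1, Psmb8 and Tap2 lie next to each other on chromosome 17, in that order.

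Tapbp (tapasin), which bridges the transporter and empty class I molecules, also lies on chromosome 17. It had 11.77, 11.60 and 11.70 in Runx3-/- DC, against 11.85, 11.78 and 11.80 in WT DC. The groups did not overlap, with Runx3-/- lower by a mean of 0.12 (SE 0.07, limma adjusted p = 0.48), and the change was -0.13 without litter 3. Canx (calnexin), the chaperone of newly made heavy chains, had 12.800, 12.784 and 12.996 in Runx3-/- DC, against 12.564, 12.717 and 12.728 in WT DC. All Runx3-/- arrays lay above all WT arrays, with a change of 0.19 (SE 0.09, limma adjusted p = 0.38, the lowest among the brightest probe sets). Pdia3, the oxidoreductase of the loading complex, had 12.42, 12.42 and 12.73 in Runx3-/- DC, against 12.27, 12.39 and 12.43 in WT DC. It was higher in each litter but overlapped (change 0.16, SE 0.11). Calr (calreticulin) had a change of 0.05 (SE 0.08). Erap1, the peptidase that trims peptides in the endoplasmic reticulum, was lower in each litter by 0.12, 0.14 and 0.07 (change -0.11, SE 0.07), and Tapbpl, a relative of tapasin that edits peptides, had a change of -0.09 (SE 0.09).

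**Figure D4:**
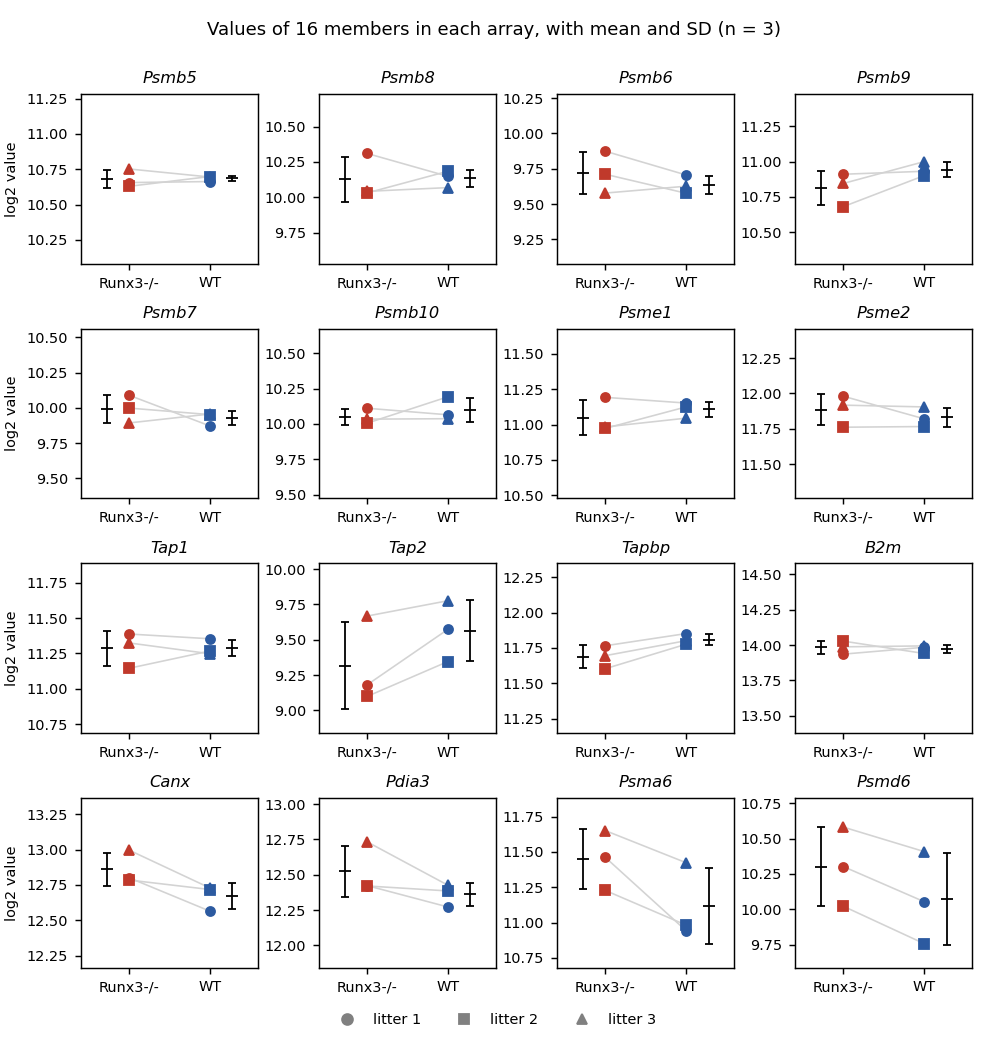
Log2 values (y axis, spanning 1.2 log2 units in each panel) of 16 members by genotype (x axis, Runx3-/- left of WT). Symbols are mice, grey lines join littermates, and bars give the mean and SD (n = 3). Tapbp and Canx are the panels in which the groups do not overlap. In Psma6, Psmd6 and Tap2 the lines of the litters run in the same direction at different heights, with slopes that differ in Psma6 and Tap2.

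Groups that did not overlap were thus found for Canx, Tapbp and Psme3 only, which is 3 of 53 members (5.66%, against 22.4% of all tested probe sets). Canx was the only one higher in Runx3-/- DC (7.48% of all tested probe sets were), and the other 2 were lower (14.9%). The count was 5 with quantile normalization (9.43%) and 7 with median centring (13.2%), against 20.9% of all tested probe sets under either. With 1 array left out, when fewer arrays need to separate, it was 13 without Runx3-/- 1 (24.5%, against 29.2% of all tested probe sets), 11 without Runx3-/- 2 (20.8%, against 37.6%) and 12 without Runx3-/- 3 (22.6%, against 30.6%). It was 4 without WT 1 (7.55%, against 27.1%), 5 without WT 2 (9.43%, against 33.5%) and 14 without WT 3 (26.4%, against 37.4%). The share of the members lay below that of all probe sets in each of these settings.

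The promoters of these 3 genes, and of Tap1, whose start region also serves Psmb9, are shown because their groups separated or, for Tap1, because the start region is shared. The windows are those of RefSeq on GRCm38.p6, 250 bases before to 50 after a start, printed 5′ to 3′ on the strand of the gene. Capitals mark each match on either strand to the RUNX core TGTGGT or to CCAAT, the box bound by the factor NF-Y.
Tapbp: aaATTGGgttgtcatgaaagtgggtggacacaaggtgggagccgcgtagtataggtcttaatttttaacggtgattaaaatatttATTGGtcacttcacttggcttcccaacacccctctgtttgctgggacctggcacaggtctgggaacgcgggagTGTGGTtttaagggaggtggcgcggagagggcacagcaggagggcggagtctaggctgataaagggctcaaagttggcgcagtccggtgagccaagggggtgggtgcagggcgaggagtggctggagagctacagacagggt
Psme3: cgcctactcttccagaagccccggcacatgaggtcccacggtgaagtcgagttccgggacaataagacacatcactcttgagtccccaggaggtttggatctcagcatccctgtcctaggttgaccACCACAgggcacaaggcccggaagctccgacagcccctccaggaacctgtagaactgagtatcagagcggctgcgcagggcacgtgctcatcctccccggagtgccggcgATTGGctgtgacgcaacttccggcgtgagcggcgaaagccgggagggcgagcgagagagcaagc
Canx: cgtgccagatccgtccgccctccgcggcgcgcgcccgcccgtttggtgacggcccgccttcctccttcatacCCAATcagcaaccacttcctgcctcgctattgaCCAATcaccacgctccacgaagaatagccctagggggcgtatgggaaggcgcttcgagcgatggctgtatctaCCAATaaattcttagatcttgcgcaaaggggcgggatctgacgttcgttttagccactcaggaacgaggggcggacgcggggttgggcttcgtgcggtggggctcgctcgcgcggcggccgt
Tap1: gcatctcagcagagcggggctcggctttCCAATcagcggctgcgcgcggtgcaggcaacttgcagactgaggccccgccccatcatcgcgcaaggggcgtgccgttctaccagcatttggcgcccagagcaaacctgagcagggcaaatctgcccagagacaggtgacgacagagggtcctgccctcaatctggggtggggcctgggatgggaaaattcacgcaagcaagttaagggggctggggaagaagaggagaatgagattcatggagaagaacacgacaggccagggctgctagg
Tapbp lies at chr17:33919228-33919527 on the plus strand, Psme3 at chr11:101315963-101316262 on the plus strand, Canx at chr11:50325624-50325923 on the minus strand and Tap1 at chr17:34187306-34187605 on the plus strand. The window of Psmb9 runs the other way and shares 275 bases with that of Tap1. Tapbp and Psme3 hold 1 RUNX match each, and Canx and Tap1 hold 0. RUNX matches were found in 9 of 49 windows of the 45 members with a window (18.4%), against 16.8% of all 32851 windows, and CCAAT in 22 (44.9%, against 37.4%). The interferon-type motif, GAAA on both sides of 2 bases of any kind, was found in 6 windows (12.2%, against 3.44%), those of B2m, Erap1, Psmb3, Psmd4, Psmd9 and Psme1. The antioxidant-type letters TGACNNNGC were found in 8 (16.3%, against 12.4%). No 2 matches overlapped in the printed windows. A match describes letters only.

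The members' values are described here by litter beside genotype, and an effect of litter on them was not tested. The mean square of litter (2 degrees of freedom) exceeded that of genotype (1 degree of freedom) for 30 of 53 members (56.6%, against 47.1% of all tested probe sets). Deviations of littermates from their group means correlated at 0.26, 0.59 and 0.48 across the 53 members in litters 1, 2 and 3, against 0.16, 0.10 and 0.25 across all tested probe sets. Between Runx3-/- and WT mice of different litters they ran from -0.61 to 0.22 across the members and from -0.23 to 0.10 across all tested probe sets, so that litter 1 of the members and litter 2 of all probe sets lay close to the highest of these. Since each deviation is taken from a group mean of 3 arrays, higher values within litters come with lower ones between litters. The range between litters is thus no independent baseline. These are descriptions over genes that share arrays. Averaged over the members, each array deviated from the gene means by 0.07, -0.06 and 0.03 in Runx3-/- DC, against -0.03, -0.08 and 0.06 in WT DC. Litter 2 was thus low in both genotypes, and the alpha ring spanned -0.16 (WT 2) to 0.11 (Runx3-/- 1). Runx3-/- exceeded WT in all 3 litters for 11 members (20.8%, against 16% of all tested probe sets), namely Psma2, Psma5, Psma6, Psmb2, Psmb4, Psmd1, Psmd2, Psmd6, Psmd8, Canx and Pdia3. It was below WT in all 3 litters for 6 members (11.3%, against 27.5%), namely Psmb9, Psmd5, Psme3, Tap2, Erap1 and Tapbp.

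**Figure D5:**
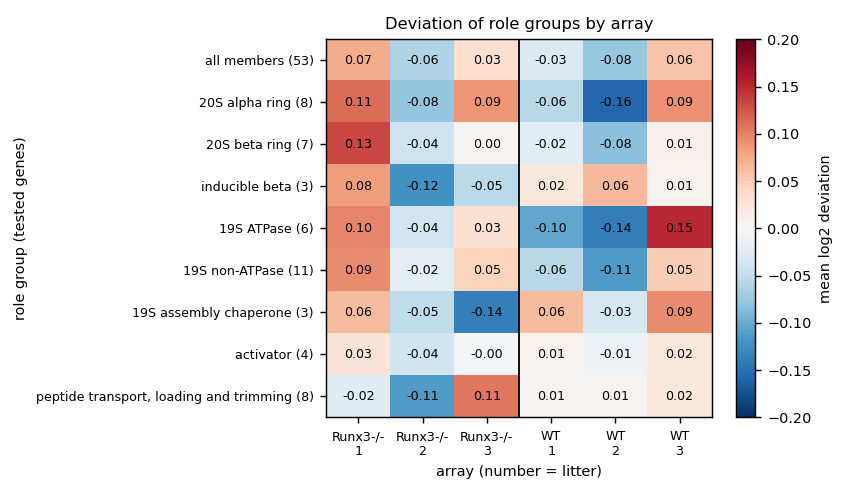
Mean log2 deviation from each gene's mean over the 6 arrays (colour and printed value), for role groups of at least 3 tested genes (y axis, with their number) in each array (x axis, Runx3-/- left of WT, numbered by litter). The mean over all 53 members is negative in both arrays of litter 2, at -0.06 in Runx3-/- and -0.08 in WT.

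Lists of other genes of the pathway held 1 called gene, again against 1.56% of all tested probe sets. Of proteasome assembly and shuttle genes 0 of 19 passed (1 at an unadjusted p of at most 0.05 by limma, where 15.9% of all tested probe sets lay, the share to read the unadjusted counts of the other lists by). That one was Pomp, the maturation factor of the core, with 10.449, 10.371 and 10.609 in Runx3-/- DC, against 10.237, 10.103 and 10.355 in WT DC (change 0.24, SE 0.10, limma adjusted p = 0.31). Of the transcription factors and signalling genes of proteasome and class I genes 0 of 21 passed, with 4 at an unadjusted p of at most 0.05. Nlrc5, the transactivator of class I genes, had 11.27, 11.07 and 11.45 in Runx3-/- DC, against 10.65, 10.90 and 10.56 in WT DC (change 0.56, SE 0.13, limma adjusted p = 0.11). The groups did not overlap. Rfx5, which binds the promoters of MHC genes together with such transactivators, had 10.11, 10.23 and 10.06 in Runx3-/- DC, against 10.55, 10.51 and 10.50 in WT DC (change -0.39, SE 0.07, limma adjusted p = 0.072). Tyk2, a kinase of the interferon receptor, had a change of -0.34 (SE 0.07, adjusted p = 0.094), and Nfe2l2 (Nrf2), an activator of antioxidant genes, 0.50 (SE 0.12, adjusted p = 0.13). Nlrc5 and Nfe2l2 are named after their values were seen. Ubqln1, a shuttle factor of the first list, had a change of -0.12 (SE 0.07).

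Among cytosolic and endosomal peptidases 0 of 10 passed by limma (2 unadjusted), with Lap3, a leucine aminopeptidase, at 9.45, 9.13 and 9.77 in Runx3-/- DC, against 8.92, 8.80 and 8.74 in WT DC (change 0.63, SE 0.16, limma adjusted p = 0.15), and Ctss (cathepsin S) at a change of 0.21 (SE 0.06). Of other class I genes 0 of 10 passed (0 unadjusted), of endoplasmic reticulum folding genes 0 of 23 (1 unadjusted), and of ubiquitin genes 0 of 15 (1 unadjusted). Hfe and H2-Q4 had changes of -0.37 (SE 0.18) and 0.24 (SE 0.13), P4hb and Mogs, a protein disulfide isomerase and a glucosidase, of 0.22 and -0.18 (SE 0.08 each), and Uba7, the activating enzyme of Isg15, of -0.16 (SE 0.08). None of these 5 passed. The ubiquitin gene with the smallest p was Ube2l6, the conjugating enzyme of the ubiquitin-like Isg15, with a change of 0.62 (SE 0.15, limma adjusted p = 0.12).

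Cross-presentation, the route by which DC place ingested antigen on class I, held the called gene. Cybb, the catalytic subunit of the phagosomal NADPH oxidase, rose to 12.76, 12.43 and 12.79 in Runx3-/- DC, against 11.70, 11.99 and 11.83 in WT DC (change 0.82, SE 0.13, limma adjusted p = 0.043). All Runx3-/- arrays lay above all WT arrays. The call ended with the litter as a block (adjusted p = 0.13), and of the arrays left out in turn it held only without Runx3-/- 2. Wdfy4, which cross-presenting DC need, had 12.07, 12.16 and 11.99 in Runx3-/- DC, against 12.65, 12.48 and 12.58 in WT DC (change -0.49, SE 0.08, limma adjusted p = 0.051). Its groups did not overlap. The other 18 tested genes of this list had adjusted p above 0.05. Of all 20 tested, 6 had an unadjusted limma p of at most 0.05 (2 higher and 4 lower in Runx3-/- DC). The 2 higher were Cybb and Mrc1 (change 1.23, SE 0.32, limma adjusted p = 0.14). The 4 lower were Wdfy4, Batf3, Ncf1 and Ncf4. Other genes of the oxidase did not rise with Cybb. Ncf1 and Ncf4 had changes of -0.29 (SE 0.10) and -0.22 (SE 0.08), Rac2 -0.16 (SE 0.07) and Cyba 0.03 (SE 0.08). Markers of some other cell types were higher in Runx3-/- DC too, and those of others were not. Among 4 tested B cell markers 2 were positive, and the 1 tested T cell marker had a change of -0.25. The sorted CD4+ DC list had 3 positive changes among 10, with a median of -0.12. Of 7 tested CD8+ DC markers 6 were positive, with a median change of 0.56 and 1 called, Cadm1 (change 0.99, SE 0.07, limma adjusted p = 0.013), and the list summed to 4190 to 5968 in Runx3-/- DC, against 3470 to 3651 in WT DC. Xcr1 had a change of 0.68 (SE 0.18), and Batf3, which like Clec9a stands in both lists, one of -0.47 (SE 0.15). All 5 plasmacytoid DC markers were positive, with 0 called, and Ccr9 stood apart at 9.35 in Runx3-/- 3. The 6 tested of 7 red pulp macrophage markers were all positive, with 2 called (Spic and Mertk), and the linear values of the list summed to 10804 to 13215 in Runx3-/- DC, against 7124 to 9408 in WT DC. The 3 tested of 4 measured monocyte markers were positive, summing to 5031 to 5471 in Runx3-/- DC, against 2949 to 4065 in WT DC. Cd163 and F13a1 were below background in every array, and the part of such cells in the change of Cybb was not tested.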

How the data were processed

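The authors summarised the raw array files in Partek with the RMA algorithm (robust multichip average, GC-corrected) and deposited log2 values, 1 per probe set and array. The submitters' notes name the mm9 build, with no software version in any source read here. RMA scales the arrays to each other, so a change shared by most genes can be hidden, although the deposited array medians still ran from 6.57 to 6.65. The members and lists were chosen with earlier results of these data known.

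Of 35399 deposited probe sets, 21789 had 1 gene symbol in the platform annotation, 1621 several and 11989 none. The 54 member symbols all matched the RefSeq gene table of GRCm38.p6 through the Entrez number, with 0 changed, and only promoter windows carry coordinates of that build. Probe sets that reached the study's background, 6.5 on the log2 scale, in 1 array or more were tested with limma 3.58.1 in R 4.3.3 (lmFit and eBayes, genotype only, two-sided), and p-values were adjusted by Benjamini-Hochberg over all 19149. The fit was tested on simulated data with independent noise in each array and no litter term, so that test does not cover arrays paired by litter. A probe set was taken as lying at its own locus where its neighbours in identifier order are genes of the same chromosome. Litter numbers in the labels pair the mice, and deviations of littermates over all tested probe sets correlated at 0.16, 0.10 and 0.25 (-0.23 to 0.10 between Runx3-/- and WT mice of different litters). These values depend on each other, because the deviations are taken from group means. Described genes were those in the rule's core list, the 3 members of each role with the smallest p, members below background, and called genes and the 2 smallest p in each further list. Others named were chosen after their values were seen. Alternatives varied the filter, scaling, litter term, variance model, test and probe set rule, and left out each array. The number of arrays limits the precision. RNeasy is named in the labels and a related kit in the methods, and the methods name an exon array while the annotation is that of a gene-level array.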

Additional observations from a re-analysis of the deposited data

Results flagged for a closer look

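H2-Ea, which is no member of the gene set, reached a log2 value of 11.21 in Runx3-/- 3, more than 1 log2 unit above every WT array (5.25 to 5.33), while Runx3-/- 1 and 2 were at 5.34 and 5.44. It is listed because a signal appeared outside the compared genes, above the level of the WT arrays. It rests on 1 mouse. Groups of 3 arrays are too small for a test of a single outlying array, so no member was tested in that way.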

How the results depend on the processing

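The count of members called was 0 in all 17 alternatives run (0 to 5 at an unadjusted p of at most 0.05), and 0 passed the study's thresholds in the 14 alternatives run for that count. Of 27 members followed by name, the lowest adjusted p in any of these alternatives was 0.20. The own-locus probe set of Psmc1 with the litter as a block, a combination outside these alternatives, had a limma adjusted p of 0.16. Of the 27, 23 kept their sign in every alternative. The other 4 had changes near 0. Psmb5 turned to 0.0090 with quantile normalization and 0.034 with median centring (-0.043 to 0.018 leaving out 1 array). Psmb8 turned to 0.017 and 0.035 under the same settings and to 0.0042 without litter 3, a setting chosen after seeing the data (-0.097 to 0.042). B2m turned to -0.010 with quantile normalization (-0.011 to 0.035) and Tap1 to 0.036 with median centring (-0.055 to 0.066). The median of the activators turned to 0.03 with median centring. Own-locus probe sets, also chosen after seeing the data, left 0 called.

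Members with groups that do not overlap numbered 5 with quantile normalization and 7 with median centring (4 to 14 leaving out 1 array). Psmb8 minus Psmb5 ran from -0.10 to 0.080 leaving out 1 array. Over the whole table, 0 probe sets were called with the litter as a replicate block, 602 with it as a random block and 6 by the methods' analysis of variance, while leaving out WT 1 gave 0, WT 2 gave 137, WT 3 gave 75, Runx3-/- 1 gave 40, Runx3-/- 2 gave 205 and Runx3-/- 3 gave 1. Runx3 kept its change of -1.98 with the replicate block (adjusted p = 0.061) and ran from -2.03 to -1.96 leaving out 1 array (adjusted p = 0.053 without WT 1). The cross-presentation list had 0 called with no filter, with the replicate block and by the analysis of variance, 2 with background in at least 3 arrays, quantile normalization, the random block or a variance trend, and 0 to 1 leaving out 1 array. The transcription list had 1 with the random block or the variance trend, and the ubiquitin list 0 to 1 leaving out 1 array. The causes were not tested.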
